A study of Mus musculus with 14 samples.

Results

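Paraspeckles are small nuclear bodies built on a long noncoding RNA, and 33 probe sets for their RNA scaffold, their proteins and 2 related nuclear RNA factors were followed in mouse liver. The 8 genes were the scaffold RNA Neat1, its neighbour Malat1, the mRNA exporter Nxf1, and Sfpq, Nono, Pspc1, Tardbp and Rbm14, which encode RNA-binding proteins found in paraspeckles. The members were all probe sets that the platform's gene table lists with exactly 1 of these symbols, 33 of the 45037 probe sets on the array that are not controls, and 8 of the 18193 genes with a probe set of their own. The genes were chosen by measured values of these same arrays, since the set was proposed with the difference between the diets known. The changes of the 8 genes between diets are therefore given as a description, with no test of their own.

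Liver RNA was measured in 14 male CBA/J mice, an inbred strain, 7 on a control diet and 7 on a diet with a krill powder extract, with 1 mouse on each array. All mice were housed singly and received 84 kcal per week of food based on the purified AIN93M maintenance formula. The test diet began at 2 months of age and livers were taken at 5 months, after 3 months of feeding. Krill are marine crustaceans, and the 2 diets held the same total protein and total lipid but different amino acids and fatty acids. Values are signal intensities on a linear scale, and the number of arrays limits the precision.

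Neat1 is transcribed as a short, polyadenylated form and a long form that lacks a conventional poly(A) tail. The long form collects Sfpq, Nono and Pspc1, which share a paired RNA-binding fold, into the paraspeckle, where some RNAs are held back from the cytoplasm. Malat1 is transcribed from the adjoining locus, shares the unusual 3' end of long Neat1 and lies in nuclear speckles, which store splicing factors. Nxf1, with its partner Nxt1, carries spliced mRNA through the nuclear pore.

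The arrays of the diets differed in quality, and these measures bear on every value below. For actin, signal near the 3' end of the transcript over signal near its 5' end gave a ratio of 1.78 to 2.44 on control and 2.48 to 3.79 on krill arrays, with no overlap (two-sided p = 0.000583 by exact permutation, adjusted p = 0.00117 over 4 measures; no lower p exists among 3432 assignments). Hybridisation spike-ins, which read brighter after scaling where an array's own RNA is dim, stood at 12.59 to 13.22 on the log2 scale on control arrays. They stood at 12.92, 13.17 and 13.09 on krill replicates 1, 3 and 6, and at 14.12 to 14.34 on krill replicates 2, 4, 5 and 7. The median signal of 78 probe sets for olfactory and vomeronasal receptors, sensory genes that serve here as a background, was 20.1 to 38.0 on control arrays. It was 32.4, 71.1 and 38.9 on krill replicates 1, 3 and 6 and 131 to 183 on krill replicates 2, 4, 5 and 7. The liver identity of the arrays was plain, since the summed signal of 5 hepatocyte markers (Alb, Apoa1, Ttr, Cps1 and Hnf4a) was 212726 to 313924 on control and 275677 to 581466 on krill arrays. The summed signal of 6 Kupffer cell markers was 4859 to 6894 on control and 6823 to 13599 on krill arrays, and that of 4 lymphocyte markers was 141 to 347 and 262 to 678. Of these 4 markers 1 passed the signal filter and 2 had a median over all arrays at or under the receptor level, which was itself higher on krill replicates 2, 4, 5 and 7. On krill replicates 1, 3 and 6 these 2 sums were 6924 to 9397 and 262 to 358, and their part in the results was not tested. Of the 6 Kupffer markers 5 entered the fit described below. There 2 were called higher and 1 lower, against 23.2% and 24.7% of all genes. Sums of 6 sinusoidal endothelial markers were 8291 to 9631 on control and 4888 to 13432 on krill arrays. Stellate, cholangiocyte and erythroid sums overlapped between the diets too. In a whole-tissue sample, fewer cells of a type and less RNA per cell cannot be told apart.

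Of the 8 genes, Neat1 and Nxf1 had the largest log2 changes between the diets, although on the krill diet Neat1 1428083_at was at or under the receptor median on 4 arrays and Nxf1 1416791_a_at on 6. With signals raised to the highest receptor median Nxf1 stood at -1.73, smaller than Malat1 1418189_s_at at -2.24. Malat1 and Sfpq were mostly lower on the krill diet, and Tardbp, a nuclear RNA-binding protein that can join paraspeckles, had probe sets in both directions. Of the 33 probe sets 31 lay in the upper 50% by mean signal and entered the fit, and the others were Nxf1 1439092_at and Rbm14 1452003_at. In the fit of all 22519 such probe sets (limma, adjusted p under 0.05), 17 of the 31 were called lower and 3 higher, and 11 did not pass. Over all tested probe sets 46.0% were called, 25.2% lower and 20.8% higher. With arrays scaled on the spike-ins 25 of the 31 were called lower and 1 higher, against 49.2% lower and 3.55% higher over all tested probe sets, whose median change was then -0.75. The median log2 change, krill minus control, was -0.64 over the 31 and -0.003 over all tested probe sets. Krill signals were all under the lowest control signal in 5 of the 31, against 7.88% of all tested probe sets, and above in 1, against 5.24%. The members were proposed with this contrast known, so nothing is read from these shares.

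Neat1 1428083_at had signals from 879 to 4486 with a median of 1672 over the 7 control arrays, and from 14.4 to 802.5 with a median of 64.5 over the 7 krill arrays. All krill arrays were below all control arrays, and krill replicate 1, at 802.5, came close to control replicate 5, at 879. Krill replicates 3 and 6 followed at 202 and 177. Krill replicates 2, 4, 5 and 7, at 14.4, 64.5, 17.1 and 25.6, were under the receptor median of their own arrays. The log2 change of signal + 16 was -4.17 (SE 0.60, n = 7 and 7), a 17.9-fold lower value on the krill diet. It was -2.50 (SE 0.48) with krill replicates 1, 3 and 6 alone and -2.89 (SE 0.37) with every signal below 183, the highest receptor median, raised to it. With spike-in level as a covariate it was -2.38 (SE 0.54) and still passed, and with the end-ratio index, the mean log2 of the 3' to 5' ratios of actin and pyruvate carboxylase, as a covariate -2.32 (SE 1.22), which did not pass.

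The second Neat1 probe set, 1442881_at, went the other way. Its signal was 111 to 212 with a median of 170 on control arrays and 191 to 843 with a median of 480 on krill arrays. The groups overlapped, since krill replicate 1 at 191 lay inside the control range and the other 6 krill arrays above it. The log2 change was 1.36 (SE 0.27), and 0.76 (SE 0.25) with krill replicates 1, 3 and 6 alone. With spike-in level as a covariate it was 0.66 (SE 0.27), which did not pass, and with spike-in scaling 0.62 (SE 0.22), which did. The receptor median was also higher on most krill arrays, at 32.4 to 183 against 20.1 to 38.0 on control arrays. Its part in the rise of 1442881_at was not tested. Krill replicate 2 had the highest signal of all arrays in 1442881_at and the lowest of all in 1428083_at. Krill replicate 1 was the lowest krill array in the former and the highest in the latter. Which part or form of Neat1 each probe set reads was not analysed here.

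**Figure D1:**
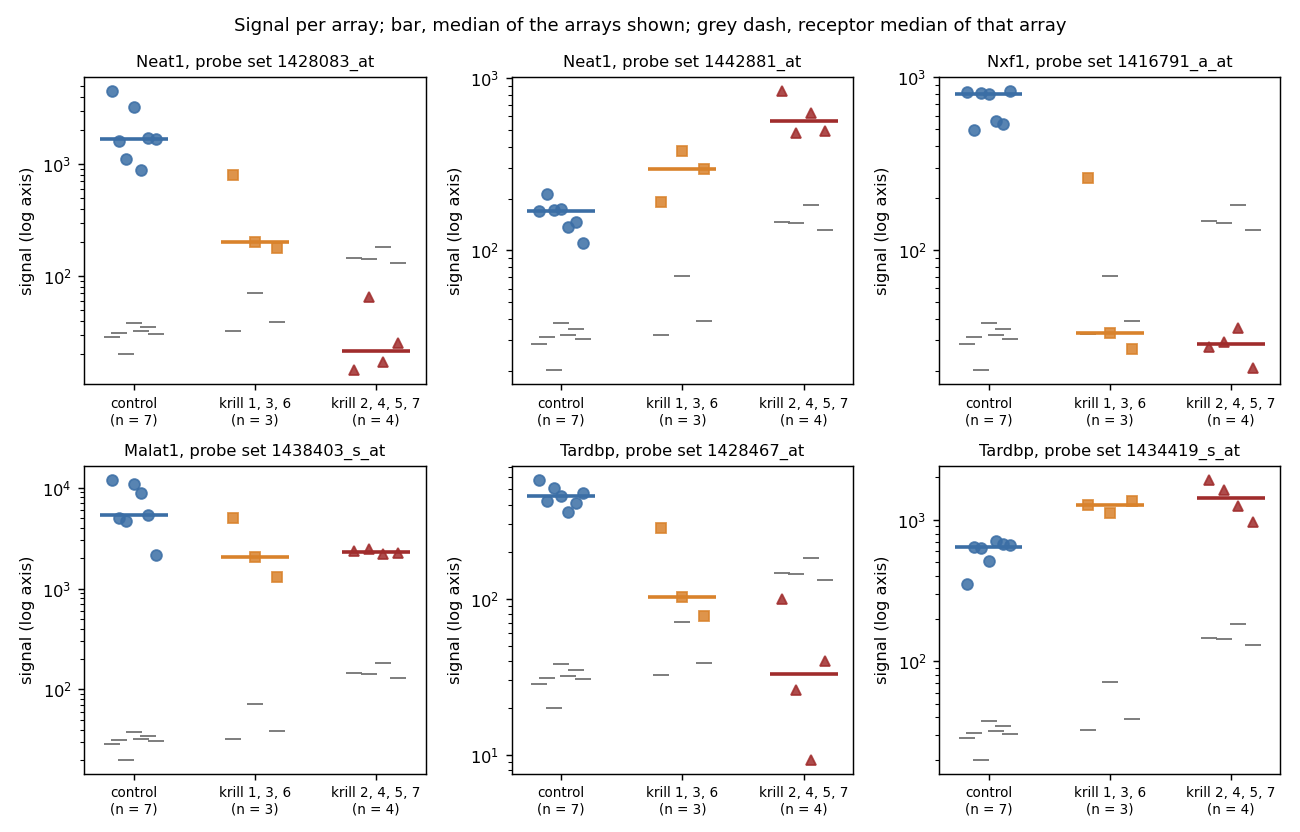
Signal per array (log axis) for 6 probe sets of Neat1, Nxf1, Malat1 and Tardbp, with control arrays as circles, krill replicates 1, 3 and 6 as squares and krill replicates 2, 4, 5 and 7 as triangles; bars are medians of the arrays shown and grey dashes the receptor median of each array. Neat1 1428083_at and Nxf1 1416791_a_at lie below the dashes on krill replicates 2, 4, 5 and 7, while Neat1 1442881_at and Tardbp 1434419_s_at are higher on the krill diet.

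Nxf1 1416791_a_at was steady on the control diet, from 494 to 832 with a median of 798, and low on the krill diet, from 20.7 to 261 with a median of 29.2. Krill replicate 1 stood alone at 261, between the control arrays and the other 6 krill arrays, which read 20.7 to 35.3. The log2 change was -3.58 (SE 0.37), a 12.0-fold lower value. It was -3.05 (SE 0.44) with krill replicates 1, 3 and 6 alone. On 6 of the 7 krill arrays the signal was at or under that array's receptor median, including krill replicates 3 and 6, and with signals raised to the highest receptor median the change was -1.73 (SE 0.17). With that index as a covariate it was -2.87 (SE 0.78) and did not pass. Probe set 1439092_at, which was not tested, read 102 to 198 with a median of 133 on control arrays and 24.1 to 212 with a median of 68.9 on krill arrays, where 5 of 7 arrays were below the control range and krill replicate 5 above it.

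**Figure D2:**
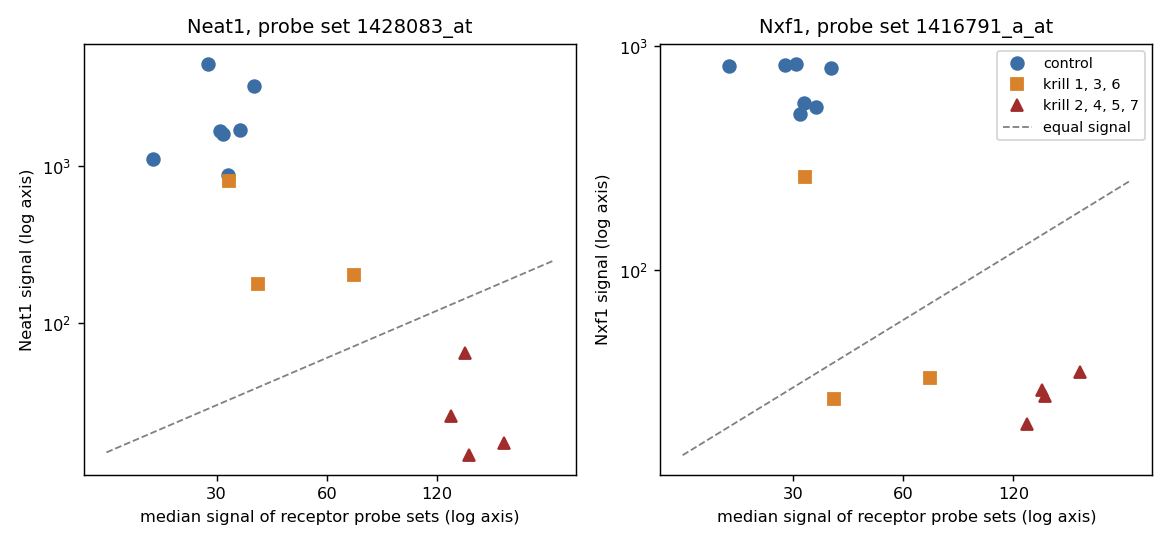
Signal of Neat1 1428083_at and of Nxf1 1416791_a_at (vertical, log axis) against the median signal of 78 olfactory and vomeronasal receptor probe sets on the same array (horizontal, log axis), 1 point per array; the dashed line marks equal signal. Nxf1 falls below the line on 6 krill arrays and Neat1 on 4, and krill replicate 1 lies nearest the control arrays in both.

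Malat1, the speckle RNA, had 7 tested probe sets, of which 5 were called lower and 2 did not pass. Malat1 1438403_s_at read 2150 to 11786 with a median of 5334 on control and 1302 to 4950 with a median of 2242 on krill arrays, so the groups overlapped. Its log2 change was -1.38 (SE 0.33), and -1.36 (SE 0.46) with krill replicates 1, 3 and 6 alone. Malat1 1429060_at was the only one of the 7 without overlap, with 616 to 1158 (median 758) on control and 180 to 538 (median 278) on krill arrays and a log2 change of -1.41 (SE 0.22). The largest changes were in 1418188_a_at and 1418189_s_at, at -2.33 (SE 0.48) and -2.24 (SE 0.51). In these, krill replicate 1, at 2926 and 4499, lay inside the control ranges and the other 6 krill arrays below them. With krill replicates 1, 3 and 6 alone they stood at -1.02 (SE 0.37) and -0.70 (SE 0.36), and the latter no longer passed. Malat1 1427285_s_at was called lower at -0.68 (SE 0.27) and did not pass with krill replicates 1, 3 and 6 alone, where 3 of the 7 Malat1 probe sets were called lower. Malat1 1452378_at at -0.11 (SE 0.25) and 1436202_at at 0.03 (SE 0.35) did not pass.

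The promoters of Malat1 and Nxf1, whose probe sets of highest mean were both lower on the krill diet, are shown to compare the control regions of an RNA gene and a protein gene of chromosome 19. Each runs from 250 bases before to 50 after the start (RefSeq, GRCm38.p6; Malat1 chr19:5802623-5802922, minus strand; Nxf1 chr19:8756853-8757152, plus strand). Capitals mark matches, on either strand, to the CCAAT box (CCAAT), the GC box (GGGCGG), the E-box of clock factors (CACGTG) and the core of the cAMP response element (TGACG).
Malat1: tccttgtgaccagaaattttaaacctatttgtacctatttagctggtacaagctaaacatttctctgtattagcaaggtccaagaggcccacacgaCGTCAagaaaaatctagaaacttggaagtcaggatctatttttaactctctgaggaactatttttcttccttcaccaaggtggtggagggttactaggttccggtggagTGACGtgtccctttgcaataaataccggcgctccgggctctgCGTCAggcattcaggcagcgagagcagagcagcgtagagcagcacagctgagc
Nxf1: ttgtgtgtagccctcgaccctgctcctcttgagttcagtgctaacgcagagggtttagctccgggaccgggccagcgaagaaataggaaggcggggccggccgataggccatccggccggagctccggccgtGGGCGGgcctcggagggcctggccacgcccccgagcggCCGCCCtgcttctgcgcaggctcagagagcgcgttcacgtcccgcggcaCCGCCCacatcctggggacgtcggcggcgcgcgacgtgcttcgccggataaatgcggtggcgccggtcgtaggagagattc
The Malat1 window held 3 matches to the cAMP core and none to the other motifs, and the Nxf1 window 3 GC boxes and none of the others. The GC content was 47.0% in Malat1 and 69.7% in Nxf1. Among 32851 promoter windows of the same length 20.8% held the cAMP core, 35.7% a GC box, 37.4% a CCAAT box and 7.15% the E-box. A match describes letters in the window and is not a measured site.

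Sfpq, Nono and Pspc1 encode the family that shares the paired RNA-binding fold, and Sfpq and Nono are needed for paraspeckles to form. Sfpq had 4 of 6 tested probe sets called lower. Sfpq 1438459_x_at read 340 to 897 (median 430) on control and 109 to 251 (median 146) on krill arrays, with no overlap and a log2 change of -1.62 (SE 0.25). On 3 krill arrays it was at or under the receptor median, and with signals raised to the highest receptor median the change was -1.36 (SE 0.22). Sfpq 1438458_a_at and 1436898_at changed by -1.40 (SE 0.25) and -1.21 (SE 0.28), and 1423795_at by -0.64 (SE 0.18). Sfpq 1423795_at, at -0.56 (SE 0.20), did not pass with krill replicates 1, 3 and 6 alone, and the other 3 did. Sfpq 1439058_at and 1423796_at did not pass, at 0.58 (SE 0.43) and 0.23 (SE 0.33). In 1439058_at krill replicates 2, 3, 4, 5 and 7, at 304 to 613, were above the control range of 120 to 215, and krill replicates 1 and 6, at 37.8 and 101, below it. The receptor median was 71.1 to 183 on the former arrays and 32.4 and 38.9 on the latter, and its part in this split was not tested.

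Nono had 1 of 4 tested probe sets called lower and none higher. Nono 1448103_s_at read 2769 to 3854 (median 3138) on control and 1010 to 3587 (median 2427) on krill arrays, a change of -0.43 (SE 0.22) that did not pass. Nono 1415820_x_at was called lower at -0.60 (SE 0.24), and with krill replicates 1, 3 and 6 alone, at -0.60 (SE 0.22), it did not pass, so that no Nono probe set was called. Nono 1447160_at and 1431239_at, at -0.36 (SE 0.31) and -0.28 (SE 0.27), did not pass. In Nono 1448103_s_at and 1415820_x_at krill replicate 2 was the lowest array of all, at 1010 and 459. Pspc1, the third of the family, was not called lower in any of its probe sets. Pspc1 1423192_at read 292 to 638 (median 475) on control and 429 to 917 (median 640) on krill arrays, a change of 0.46 (SE 0.20) that did not pass. Pspc1 1423193_at was called higher at 1.21 (SE 0.39), with 118 to 653 on krill arrays against 65.3 to 215 on control arrays. Its highest values, 477 to 653, were on krill replicates 2, 4, 5 and 7, and with krill replicates 1, 3 and 6 alone it stood at 0.15 (SE 0.35) and did not pass.

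Tardbp, which encodes TDP-43, was called in all 5 tested probe sets, 4 lower and 1 higher. Tardbp 1428467_at read 359 to 571 (median 453) on control and 9.31 to 284 (median 77.0) on krill arrays, with no overlap and a change of -2.53 (SE 0.40). On 4 krill arrays it was at or under the receptor median. With krill replicates 1, 3 and 6 alone it was -1.65 (SE 0.29), and with signals raised to the highest receptor median -1.15 (SE 0.14). Tardbp 1434419_s_at ran the other way without overlap, from 351 to 709 (median 642) on control to 961 to 1903 (median 1270) on krill arrays, at 1.16 (SE 0.19). Its change was 1.07 (SE 0.20) with krill replicates 1, 3 and 6 alone, and 0.39 (SE 0.30) with arrays scaled on the spike-ins, where it did not pass. Tardbp 1455655_a_at, 1423723_s_at and 1436318_at changed by -0.77 (SE 0.20), -0.93 (SE 0.28) and -0.62 (SE 0.19), and of these 1436318_at alone passed with krill replicates 1, 3 and 6.

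Rbm14, a coactivator that is needed for intact paraspeckles, had 4 tested probe sets, of which 1456566_x_at was called lower. It read 209 to 621 (median 517) on control and 118 to 264 (median 189) on krill arrays, a change of -1.05 (SE 0.27). Rbm14 1436979_x_at, 1450569_a_at and 1437032_x_at, at -0.83 (SE 0.37), -0.30 (SE 0.31) and -0.21 (SE 0.35), did not pass. With krill replicates 1, 3 and 6 alone all 4 were called lower, at -1.70 (SE 0.34), -1.07 (SE 0.26), -0.90 (SE 0.31) and, for 1456566_x_at, -1.30 (SE 0.33). In that fit 14 of the 31 member probe sets were called lower and 2 higher, against 20.0% and 9.99% of all tested probe sets.

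**Figure D3:**
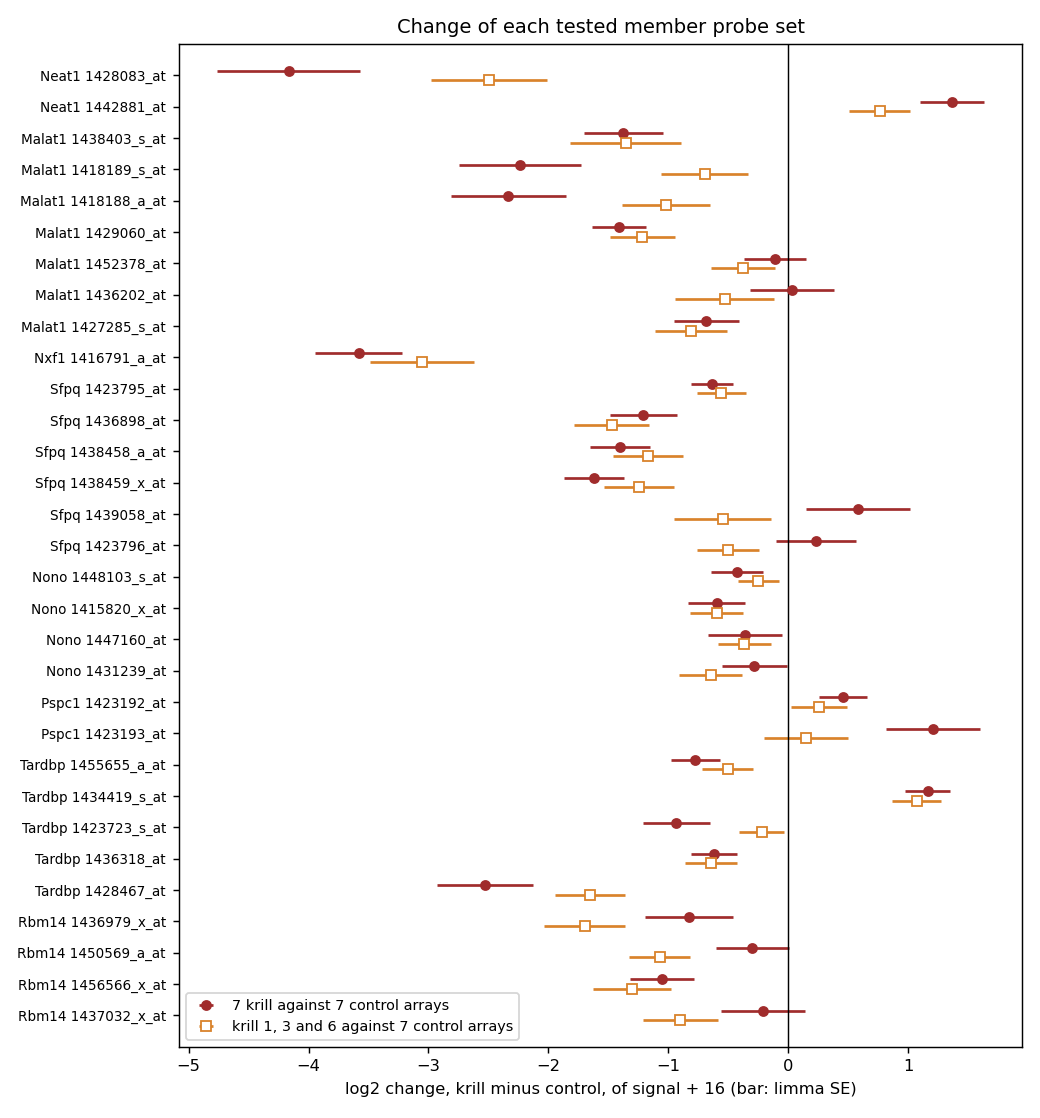
Log2 change of signal + 16, krill minus control, with its limma standard error, for the 31 tested member probe sets; filled circles use all 14 arrays and open squares leave out krill replicates 2, 4, 5 and 7. Neat1 1428083_at and Nxf1 1416791_a_at lie farthest to the left at -4.17 and -3.58, and all 4 Rbm14 probe sets lie farther to the left in the fit without those arrays.

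Probe sets of 1 gene share their animals and often part of their target, and are not replicates. By the platform's naming, an ending _s_at marks probes shared by several transcripts and _x_at marks some probes that match other sequences. Of the 5 members with _x_at 3 were called lower, and of the 6 with _s_at 4 were called lower and 1 higher. Of the 5 with _a_at, which marks several transcripts of 1 gene, 4 were called lower. Of the 15 tested members with a plain ending 6 were called lower and 2 higher. Over all tested probe sets 25.2% were called lower and 20.8% higher. Shares over all probe sets of each ending are not given here, so nothing is read from these counts. In 13 of the 17 member probe sets called lower krill replicate 1 was the highest krill array. Among all 5681 probe sets called lower, krill replicate 1 was the highest krill array in 51.2%.

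The spread among control animals does not depend on the comparison of diets. On control arrays alone Neat1 1428083_at varied 5.10-fold from lowest to highest, and its standard deviation of 0.82 on the log2 scale was above 95.5% of all tested probe sets. Malat1 1438403_s_at varied 5.48-fold (standard deviation 0.85, above 96.3%), and Nxf1 1416791_a_at varied 1.68-fold (0.33, above 55.2%). Tardbp 1455655_a_at and Nono 1448103_s_at were among the steadier, above 10.4% and 12.3%. Control replicates 1 and 4 had the 2 highest signals in Neat1 1428083_at, at 4486 and 3248, and also in Malat1 1438403_s_at, at 11786 and 10872, and in Malat1 1418188_a_at and 1418189_s_at.

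Over the 7 control arrays none of 17 correlations of Neat1 or Nxf1, by the probe set of highest mean of each gene, with the other members, spike-in brightness or the end-ratio index passed. Neat1 with Malat1 gave r = 0.45 (exact permutation p = 0.324, adjusted p = 0.677) and rho = 0.54 (exact permutation p = 0.236, adjusted p = 0.668), and r = -0.66 without the 2 arrays farthest from the Neat1 median. Neat1 with Nxf1 gave r = 0.45 (exact permutation p = 0.304, adjusted p = 0.677) and rho = 0.29 (exact permutation p = 0.556, adjusted p = 1), and r = -0.05 without those 2 arrays. Neat1 with Rbm14 gave r = 0.68 (exact permutation p = 0.0982, adjusted p = 0.677) and rho = 0.79 (exact permutation p = 0.048, adjusted p = 0.465), and r = 0.49 without them. At an unadjusted p under 0.05 there were 0 of 17 pairs by r and 1 of 17 by rho. No correlation was computed over the krill arrays, whose spike-in levels fell into separate clusters. Among 11342 other genes the control profiles most like Neat1 were those of the sodium channel subunit Scnn1a (r = 0.993), C330022C24Rik (r = 0.987), the muscle enolase Eno3 (r = 0.987), Nacc2 (r = 0.984) and Arvcf (r = 0.982). Those most like Nxf1 were Klhl22 (r = 0.998), Hp1bp3 (r = 0.989), Abcf1 (r = 0.981), Zfp467 (r = 0.98) and Sipa1l3 (r = 0.979). Among so many genes, 7 arrays give values near 1 easily, and these are a description.

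Genes of the same and related nuclear bodies were counted beside the members. Counts below take the probe set with the highest mean for each gene, and over 11343 genes 48.0% were called, 23.2% higher and 24.7% lower, with a median log2 change of 0.05. Scaling the arrays on their spike-ins moves that median to -0.71 and centring each array on its own median moves it to -0.38, so the lists are also given with those scalings. Over all genes 47.6% were called lower and 3.49% higher with spike-in scaling, and 32.8% lower and 8.72% higher with median centring. With krill replicates 1, 3 and 6 alone 19.3% of all genes were called lower and 12.3% higher, with a median of -0.04.

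Of 17 tested nuclear speckle genes 12 fell, 1 rose and 4 did not pass, with a median of -1.53. Son, the large scaffold protein of speckles, changed by -2.22 (SE 0.27, limma adjusted p = 2.2e-05), with 1654 to 3533 on control and 273 to 1127 on krill arrays. The groups did not overlap, although of the 7 tested Son probe sets only 3 were called lower and none higher. Srrm2, the other speckle scaffold, changed by -1.95 (SE 0.27, limma adjusted p = 4.4e-05), the splicing factor Srsf4 by -2.06 (SE 0.27) and Acin1, of the exon junction complex, by -1.70 (SE 0.23). Of the 3 tested Srrm2 probe sets 2 were called lower and none higher. In 9 of the 17 genes no krill array reached the lowest control array, against 7.86% of all genes. With krill replicates 1, 3 and 6 alone 11 fell and 1 rose, with a median of -1.02. With spike-in scaling 14 fell and 0 rose, with a median of -2.30. With median centring 14 fell and 0 rose, with a median of -1.97.

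A further list held other paraspeckle proteins, factors that act on them and Slc7a2, which encodes an amino acid transporter and is neither. Among its 33 tested genes 12 fell, 4 rose and 17 did not pass, with a median of -0.14. Slc7a2, at -0.56 (SE 0.21), was among those that fell. Carm1, an arginine methyltransferase that modifies Nono, changed by -1.93 (SE 0.25, limma adjusted p = 3.16e-05), from 414 to 1514 on control to 179 to 385 on krill arrays. The RNA-binding proteins Hnrnph1 and Hnrnph3 changed by -1.31 (SE 0.19) and -1.20 (SE 0.18), and Ubap2l by -1.52 (SE 0.25), all without overlap between the diets. The other tested Hnrnph1 probe set, at -0.55, was not called. With krill replicates 1, 3 and 6 alone 11 fell and 2 rose, and with spike-in scaling 21 fell and 0 rose. With median centring 13 fell and 1 rose.

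Of 25 tested mRNA export genes 8 fell, 4 rose and 13 did not pass, with a median of -0.43. The export genes numbered 6 that fell and 2 that rose with krill replicates 1, 3 and 6 alone, with a median of -0.11, and with spike-in scaling 19 fell and 0 rose. With median centring 11 fell and 0 rose. Ddx39b, the helicase that loads export adaptors onto mRNA, changed by -2.46 (SE 0.32, limma adjusted p = 3.37e-05), from 1097 to 2725 on control to 163 to 1153 on krill arrays, where krill and control arrays overlapped. Rae1, a pore-bound export factor, changed by -0.87 (SE 0.19) and Poldip3 by -0.93 (SE 0.22). Of the 5 tested Poldip3 probe sets 4 were called lower and none higher. Thoc7, of the THO complex that couples transcription to export, changed by 0.91 (SE 0.15), with every krill array above every control array. Nxt1, the partner of Nxf1, had a log2 change of 0.17 and did not pass.

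RNase P cuts the 3' ends of Malat1 and long Neat1, and RNase Z trims the small RNA that the cut releases. Of 10 tested genes of these enzymes 2 rose, 3 fell and 5 did not pass, with a median of -0.16, and with spike-in scaling 0 rose and 7 fell. With median centring 0 rose and 3 fell, and with quantile normalization 2 rose and 0 fell. Over all genes 24.9% were called higher and 22.4% lower with quantile normalization. The subunits Rpp40 and Rpp30 changed by 0.60 (SE 0.16) and 0.63 (SE 0.19), and Pop7 by -0.69 (SE 0.22). Rpp30 at 0.43 (limma adjusted p = 0.123) and Pop7 at -0.41 (limma adjusted p = 0.0874) did not pass with krill replicates 1, 3 and 6 alone, where 1 gene of the list rose and 1 fell. Elac2, which encodes a RNase Z, changed by -0.54 (SE 0.21, limma adjusted p = 0.0455).

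Other long noncoding RNAs showed no common direction, with 4 of 22 higher, 4 lower and 14 not passing and a median of 0.38. The median was -0.06 with krill replicates 1, 3 and 6 alone, where 1 rose and 2 fell, and with spike-in scaling 0 rose and 7 fell. With median centring 1 rose and 4 fell. Kcnq1ot1, an imprinted nuclear RNA, changed by -1.72 (SE 0.34, limma adjusted p = 0.000704) without overlap, from 202 to 370 on control to 11.8 to 171 on krill arrays. Of its 3 tested probe sets 1 was called lower and none higher, with log2 changes up to 0.13. Norad, a cytoplasmic RNA, changed by -1.13 (SE 0.27) and Dancr by -1.43 (SE 0.42). On krill arrays Kcnq1ot1 had a median of 81.8 and Dancr read 13.3 to 114, while the receptor medians of those arrays were 32.4 to 183. Rian, another imprinted RNA, was called higher (limma adjusted p = 0.0164), with 38.0 to 85.9 on control and 23.9 to 495 on krill arrays, and at 0.34 with krill replicates 1, 3 and 6 alone it did not pass (limma adjusted p = 0.622). Norad, at -0.41 in that fit, did not pass either (limma adjusted p = 0.116).

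**Figure D4:**
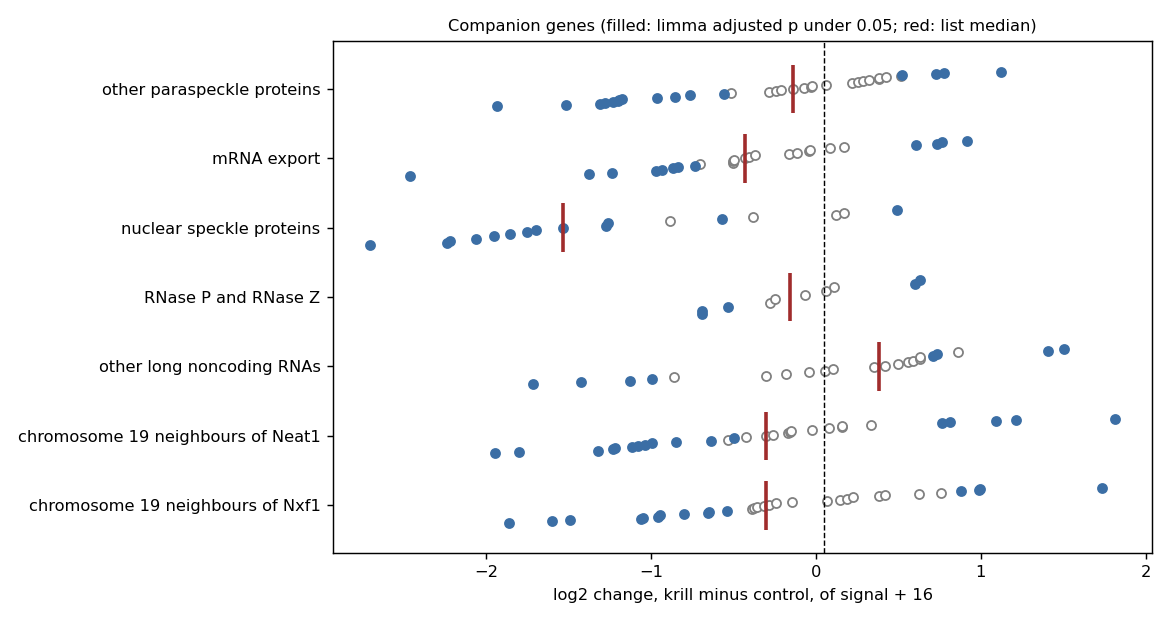
Log2 change of signal + 16, krill minus control, of each tested companion gene by list, 1 point per gene; filled points passed (limma adjusted p under 0.05), red bars are list medians and the dashed line is the median of all genes. The nuclear speckle list has its median at -1.53, and the other list medians lie between -0.43 and 0.38.

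Of the 8 genes 4 lie on mouse chromosome 19, in the order Rbm14, Malat1, Neat1 and Nxf1, with 1 listed gene between Malat1 and Neat1 and 143 between Neat1 and Nxf1. Of the 29 nearest tested genes around Neat1, besides Malat1, 12 fell, 5 rose and 12 did not pass, with a median of -0.30. Frmd8, the next tested gene on one side, changed by -1.08 (SE 0.18, limma adjusted p = 0.000177) and Ltbp3, the next beyond Malat1, by -0.26 without passing. The ubiquitin ligase gene Syvn1 changed by -1.95 (SE 0.32), Rela, an NF-kappa B subunit, by -1.32 (SE 0.22) and Rnaseh2c, of an RNase H complex, by 1.81 (SE 0.27). Of the 30 tested genes nearest Nxf1 11 fell, 4 rose and 15 did not pass, with a median of -0.30. Bscl2, which encodes the lipid droplet protein seipin, changed by -1.86 (SE 0.27, limma adjusted p = 6.37e-05), the organic anion transporter family member Slc22a30 by -1.06 (SE 0.21), Slc3a2, a chain of amino acid transporters, by -1.49 (SE 0.32) and Tmem223 by 0.88 (SE 0.17). The other tested Bscl2 probe set was also called lower, at -3.31. With signals raised to the highest receptor median Nxf1 stood at -1.73, smaller than -1.86 of Bscl2, whose signals there all lay above that level. With spike-in scaling 20 fell and 1 rose around Neat1, and 19 fell and 0 rose around Nxf1. With median centring 14 fell and 3 rose around Neat1, and 14 fell and 1 rose around Nxf1.

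**Figure D5:**
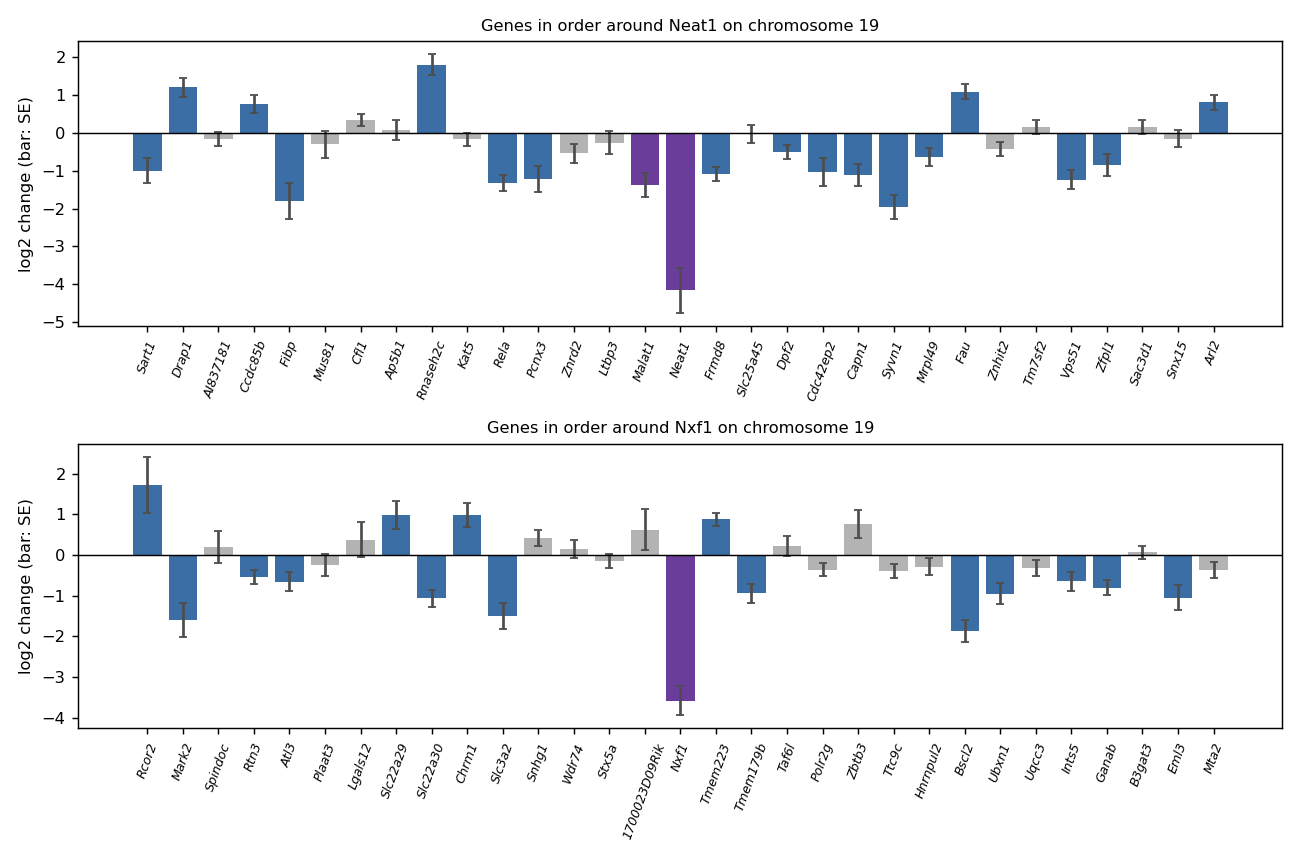
Log2 change of signal + 16, krill minus control, with its standard error, for tested genes in chromosomal order around Neat1 and around Nxf1; purple bars are members, blue bars other genes that passed (limma adjusted p under 0.05) and grey bars genes that did not. Each bar is the probe set of highest mean of its gene. Neat1 at -4.17 and Nxf1 at -3.58, chosen with this contrast known, are the lowest bars of their panels. Neighbours lie on both sides of 0, and a second Bscl2 probe set, not shown, stood at -3.31.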

How the data were processed

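Biotin-labelled cRNA from liver total RNA was hybridised to Affymetrix mouse arrays, per the labels' protocols. The authors' deposited table holds linear signal intensity for 45101 probe sets, 64 of them controls, made with MAS5 per the submitters' processing notes, with no version given in the sources used here. Arrays share a mean without the lowest and highest 2% of probe sets, and their distributions were not equalised. Detection calls were not used here. Genes came from the platform table (34945 probe sets with 1 symbol; symbols updated with the gene table of GRCm38.p6), and 1 probe set listed with Rbm14 and other genes was left out.

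Signal was taken as log2(signal + 16), which understates folds of dim genes. The upper 50% by mean signal, 22519 probe sets, were fitted with limma 3.58.1 in R 4.3.3 (lmFit, eBayes with trend) on diet alone, with Benjamini-Hochberg adjustment over all. Since each array is a separate animal, the errors hold the spread between mice and arrays together. Scripts ran in Python 3.11.15 with matplotlib 3.10.9. The members, the lists and the rule for named genes (all member probe sets, up to 4 genes per list with the smallest p, and the 5 most alike control profiles) were chosen with earlier results of these data known. Genes named beyond that rule (Nxt1, Ltbp3, Slc7a2) were chosen after their values were seen. The procedure was tested on simulated data, with independent noise of the control spread in both groups. Those data held neither the wider spread of the krill arrays nor the quality difference between the diets, so the test does not cover them. The replicate numbers of the 2 diets did not pair the arrays.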

Additional observations from a re-analysis of the deposited data

Results flagged for a closer look

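Of 66 sets of 7 arrays checked (33 probe sets in each diet), 2 held an array far from the others, and chance gives about 1 in 20. In Nxf1 1416791_a_at krill replicate 1 read 261 against 20.7 to 35.3 on the other krill arrays, a gap of 0.834 of the range on the log2 scale. In Rbm14 1452003_at, a probe set too dim to be tested, control replicate 4 read 55.7 against 5.09 to 18.2 on the other control arrays, a gap of 0.605 of the range.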

How the results depend on the processing

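The changes of the 31 tested member probe sets were refitted under the alternatives, in 868 values. Of these 798 moved by less than 1 standard deviation between replicates, 69 moved further, and 1 value of a called probe set turned sign, Pspc1 1423193_at at -0.04 with spike-in level as a covariate. Many of the 798 could not have moved further. Alternatives that alter only the filter, the trend or the replicate block leave the log2 change as it was. Leaving out 1 array of 7 cannot move a mean by that much. The count is therefore no measure of stability. The change of Neat1 1428083_at ranged from -4.72 to -2.32, that of Neat1 1442881_at from 0.62 to 1.55 and that of Nxf1 1416791_a_at from -4.16 to -1.73. The end-ratio index separates the diets without overlap, and with it as a covariate 0 of 22519 probe sets were called by limma (3241 at an unadjusted p under 0.05), so 0 members were called lower or higher (10 of 31 at an unadjusted p under 0.05, 9 of them lower), 0 companion genes in any list, and diet and RNA quality cannot be told apart. With spike-in level as a covariate 3466 of 22519 probe sets (15.4%) were called, with 11 of 31 members lower and 1 higher. Called genes in that fit numbered 9 of 33 in paraspeckle proteins, 4 of 25 in mRNA export and 8 of 17 in nuclear speckles. They numbered 0 of 10 in RNase P and RNase Z, 2 of 22 in noncoding RNAs, 8 of 29 around Neat1 and 2 of 30 around Nxf1. With 1 probe set per gene, 5 of 8 members were lower and 0 higher, fewer by construction, and 49.1% of all genes were called in that fit. Spike-in scaling left 1 member higher and called 19 of 25 mRNA export genes, against 52.8% of all tested probe sets. RNase P and RNase Z calls numbered 3 with array weights, median centring, no signal filter or no trend, and 2 with quantile normalization or without krill replicates 2, 4, 5 and 7. Noncoding RNA calls numbered 5 with median centring, 4 in the upper 30% of signal and 3 without krill replicates 2, 4, 5 and 7. In the upper 30% of signal only 11 of these RNAs were tested, and 55.9% of all tested probe sets were called. The cause of these moves was not tested. With 1 array left out, RNase P and RNase Z calls ranged from 3 to 5, noncoding RNA calls from 5 to 11, members lower from 15 to 18 and members higher from 3 to 4. Calls over all tested probe sets ranged from 40.0% to 53.1% in those fits. The RNase P and RNase Z calls were 3 without control replicate 1, 3, 4, 6 or 7 or krill replicate 1, 2 or 7, and the noncoding RNA calls 5 without control replicate 3 or krill replicate 2. The replicate block gave 16 members lower and 3 higher and 10088 calls in all against 10365; same-numbered arrays did not deviate together (correlation of deviations over 0.1 in 0 of 7 pairs, and 1 of 7 control arrays correlated best with its own number). In the control correlations 0 of 17 pairs passed with a pseudocount of 1 or quantile normalization. Raising signals to the receptor level was chosen after seeing the data.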
